A study of Homo sapiens with 6 samples.

Results

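The channels through which most fast synaptic signals of the brain pass are built from subunits encoded by the GRIA, GRIK, GRID and GRIN genes (ionotropic glutamate receptors) and the GABR genes (GABA-A receptors). Their position relative to H3K9me3 domains, broad stretches of chromatin carrying a mark typical of constitutive heterochromatin, was examined in the human breast epithelial line MCF10.DCIS.com, a model of ductal carcinoma in situ. Genes were taken by symbol from the protein-coding genes of GENCODE 44 on hg38, autosomes alone: GRIA, GRID, GRIK or GRIN followed by a number, and GABRA, GABRB, GABRG, GABRD, GABRP or GABRR. This gave 33 of 19111 autosomal protein-coding genes, 17 for glutamate receptors and 16 for GABA-A receptors. The rule used no measured value.

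The domain lists came from 4 ChIP-seq libraries. The 2 control libraries were made from monolayers infected with the empty lentiviral vector pSLIK-neo-EV, and the 2 RAB5A libraries from monolayers infected with pSLIK-neo-RAB5A, an inducible construct for RAB5A, a small GTPase of early endosomes. Both lines were selected with antibiotic to obtain stable inducible cells. The antibody was ab176916 for one library of each condition (replicate 1) and ab8898 for the other (replicate 2), so n = 2 per condition and replicate error contains the difference between antibodies. Nothing in the labels says that the libraries came from separate cultures. The lists give called domains to a resolution of 200 kb and hold no expression values, so whether these genes were silent in the cells was not measured here. Domains covered 6.99% and 6.80% of the autosomes in control and 7.01% and 6.89% in RAB5A cells, with ab176916 given before ab8898. Where 4 values follow each other below, they keep this order, control first.

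Glutamate opens cation channels made of 4 subunits and excites the receiving cell. AMPA receptors (GRIA) carry the fast current, NMDA receptors (GRIN) pass calcium and need membrane depolarization, kainate receptors (GRIK) tune release and excitability, and the delta proteins (GRID) act mainly as synaptic organizers. GABA opens chloride channels made of 5 subunits, in the common form alpha, beta and gamma, and mostly inhibits the receiving cell. Alpha, beta and gamma genes lie side by side in clusters thought to descend from one ancestral group, and H3K9me3 is a mark of chromatin kept silent over long stretches.

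The promoters of 4 genes are shown because they set a gene inside a domain beside a gene of the same subunit type outside every domain. Each is the RefSeq sequence (GRCh38.p14) from 250 bases before to 50 bases after the start of the RefSeq transcript, 5′ to 3′ on the strand of the gene, with CpG dinucleotides in capitals. That start equals the GENCODE gene start for GABRG3 and GABRG1, and lies 2.32 kb (GABRB2) and 37.8 kb (GABRB1) inside the GENCODE gene body, so these windows sit at an inner start. GABRB2 (chr5:161546676-161546975, minus strand) and GABRG3 (chr15:26970931-26971230, plus strand) lay in domains. GABRB1 (chr4:47031317-47031616, plus strand) and GABRG1 (chr4:46124005-46124304, minus strand) did not.
GABRB2: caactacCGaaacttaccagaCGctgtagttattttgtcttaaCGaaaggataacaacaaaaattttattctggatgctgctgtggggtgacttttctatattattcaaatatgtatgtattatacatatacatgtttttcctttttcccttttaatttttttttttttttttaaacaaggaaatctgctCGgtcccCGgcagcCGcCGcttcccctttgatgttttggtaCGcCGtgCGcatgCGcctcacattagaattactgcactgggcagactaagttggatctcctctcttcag
GABRB1: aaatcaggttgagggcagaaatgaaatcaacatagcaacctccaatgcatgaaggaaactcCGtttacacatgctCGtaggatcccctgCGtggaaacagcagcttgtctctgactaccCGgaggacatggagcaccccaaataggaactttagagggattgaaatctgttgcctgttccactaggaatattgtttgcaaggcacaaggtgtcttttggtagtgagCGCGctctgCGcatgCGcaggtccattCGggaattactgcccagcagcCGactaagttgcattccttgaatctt
GABRG3: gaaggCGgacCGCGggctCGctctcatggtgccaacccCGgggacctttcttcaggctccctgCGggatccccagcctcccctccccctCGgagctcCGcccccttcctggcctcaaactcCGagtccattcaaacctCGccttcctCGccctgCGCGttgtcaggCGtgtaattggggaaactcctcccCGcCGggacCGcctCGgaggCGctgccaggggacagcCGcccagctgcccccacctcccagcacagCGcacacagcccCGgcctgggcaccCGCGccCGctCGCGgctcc
GABRG1: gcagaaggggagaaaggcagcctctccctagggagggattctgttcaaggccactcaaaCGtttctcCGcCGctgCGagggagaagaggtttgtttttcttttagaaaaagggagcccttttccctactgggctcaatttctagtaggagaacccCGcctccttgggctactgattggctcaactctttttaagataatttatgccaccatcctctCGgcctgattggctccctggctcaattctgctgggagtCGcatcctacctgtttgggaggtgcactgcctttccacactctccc

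The beta subunit genes had 11 (GABRB2, inside a domain) and 10 (GABRB1, outside) CpG dinucleotides in 300 bases. The gamma subunit genes had 27 (GABRG3, inside) and 7 (GABRG1, outside). The median of the 14616 autosomal genes with a promoter sequence was 22, and that of the 23 receptor genes with one was 12. Over all 23, the 3 promoters of genes in domains had 3 (GABRA6, whose RefSeq start lies 138.7 kb inside its GENCODE body), 11 and 27, and the 20 of genes outside had 2 to 49, so the ranges overlapped.

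Of the 33 receptor channel genes, 7 (21.2%) overlapped a domain, and the same 7 did so in each of the 4 libraries. All were GABA-A genes, 7 of 16 (43.8%), whereas 0 of 17 glutamate receptor genes overlapped a domain in any library. Among all 19111 autosomal protein-coding genes the share overlapping a domain was 4.54% and 4.83% in control and 4.59% and 4.80% in RAB5A cells, and 4.32% overlapped one in all 4. The 7 genes are not independent observations, since they formed 2 clusters of neighbours. With genes no more than 1 Mb apart counted as 1 locus, there were 24 loci, of which 2 (8.33%) lay in domains. The share of genes was thus above the background, and the share of loci was near the share of the autosomes that domains covered.

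Each of the 7 genes had 100% of its body and its transcription start in a domain in all 4 libraries, and each of the other 26 had 0%. No receptor gene straddled a domain edge. For comparison, 4.21%, 4.53%, 4.26% and 4.49% of all autosomal genes lay wholly in a domain, and 4.35%, 4.67%, 4.40% and 4.64% had their start in one. Receptor genes are long, with a median of 169.3 kb against 27.9 kb for all autosomal genes. Among the 19 receptor genes of at least 100 kb, 5 lay in domains, beside 3.48%, 3.54%, 3.51% and 3.48% of the 3507 autosomal genes of that length.

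**Figure D1:**
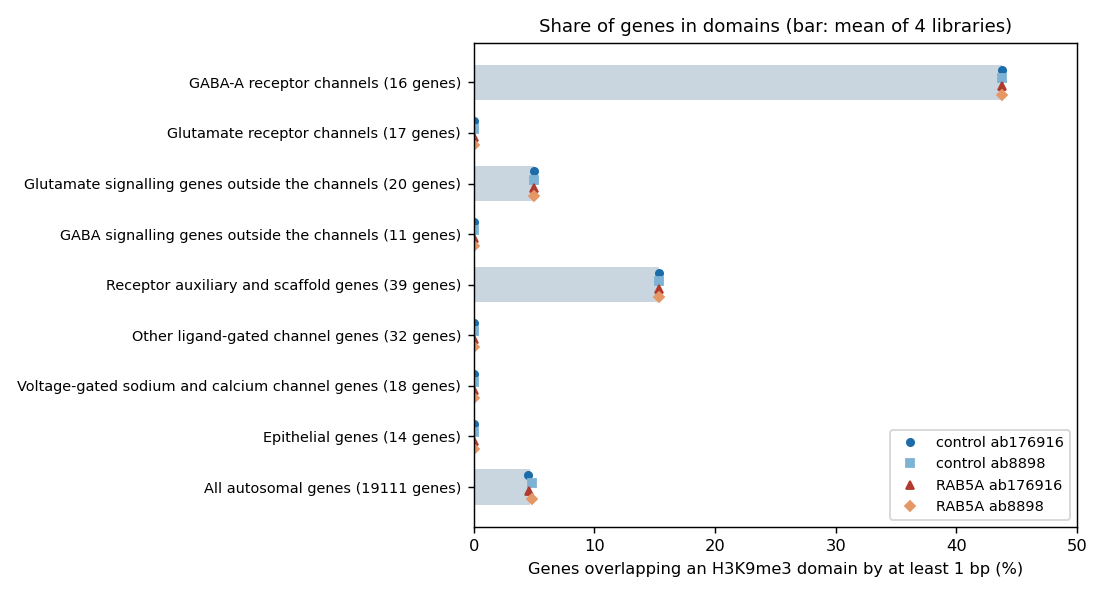
Share of genes overlapping an H3K9me3 domain (%, horizontal axis) for groups of receptor genes, comparison lists and all autosomal protein-coding genes, with bars for the mean of 4 libraries and points for each library. GABA-A genes reach 43.8% and glutamate receptor genes 0% in every library, beside 4.54% to 4.83% of all autosomal genes.

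The genes in domains encode alpha, beta and gamma subunits. The delta gene (GABRD), the pi gene (GABRP) and the 3 rho genes (GABRR1 to GABRR3) all lay outside. Receptors on which benzodiazepines act are made of alpha, beta and gamma subunits, but not all such receptors respond to these drugs. Delta subunits replace gamma in receptors outside the synapse, and rho subunits make the receptors of the retina once called GABA-C. GABRP differs from the others in that it is known for expression in epithelia, breast included, rather than in brain.

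On chromosome 5, 4 receptor genes lay in a domain, among them GABRB2 (161288429-161549044, minus strand) and GABRA6 (161547063-161702593, plus). GABRB2 encodes a common beta subunit and GABRA6 an alpha subunit typical of cerebellar granule cells. A single domain enclosed all 4. It spanned chr5:160600001-163400000 (2.8 Mb) in both RAB5A libraries and in control ab176916, and chr5:160600001-163200000 (2.6 Mb) in control ab8898. The lower edge was the same in the 4 libraries, and the upper edge differed by one 200 kb bin in a single library.

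The domain on chromosome 5 overlapped 5 protein-coding genes, the 4 receptor genes and ATP10B, a phospholipid-transporting ATPase. ATP10B did not lie wholly inside it in every library. Receptor gene bodies made up 0.630 Mb, which was 22.5% of the domain in 3 libraries and 24.2% in control ab8898. The domain began 0.688 Mb below GABRB2. The score that the domain caller gave it was 9.67 and 9.30 in control and 9.08 and 8.88 in RAB5A cells. These are low values for a list, ranking 20 of 78, 4 of 76, 19 of 79 and 6 of 76 from the lowest, so the rank was lower with ab8898 than with ab176916 in both conditions. When domains with scores under the lower quartile of their list were left out, this domain was lost from all 4 lists. In control ab176916 it fell only narrowly under the lower quartile, at 9.674 against 9.679. After this filter 3 of the 7 genes remained inside, beside 3.32%, 3.42%, 3.36% and 3.52% of all autosomal genes.

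On chromosome 15, 3 receptor genes lay in a domain, among them GABRA5 (26866911-26949208, plus strand) and GABRG3 (26971181-27541984, plus). GABRA5 encodes an alpha subunit of hippocampal receptors outside the synapse, and GABRG3 a rarer gamma subunit. The annotated bodies of GABRB2 and GABRA6 on chromosome 5 overlap, so their shares rest in part on the same bases. The enclosing domain was chr15:23200001-28200000 (5 Mb) with ab176916 in both conditions and chr15:23000001-29600000 (6.6 Mb) with ab8898 in both. The edges therefore followed the antibody and not the condition.

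The receptor genes were a small part of the chromosome 15 domain, with 0.976 Mb or 19.5% of it with ab176916 and 14.8% with ab8898. It overlapped 14 other protein-coding genes with ab176916 and 25 with ab8898, and HERC2 did not lie wholly inside it in every library. Among the 14 were the imprinted genes MKRN3, MAGEL2, NDN and SNRPN, UBE3A, whose loss causes Angelman syndrome, and OCA2 and HERC2, known for their part in pigmentation. Its upper edge was 0.658 Mb (ab176916) and 2.06 Mb (ab8898) above GABRG3. Its score was 35.9 and 48.8 in control and 35.2 and 45.2 in RAB5A cells. In contrast to the domain on chromosome 5 it ranked near the top of each list, at 72 of 78, 73 of 76, 73 of 79 and 73 of 76 from the lowest.

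**Figure D2:**
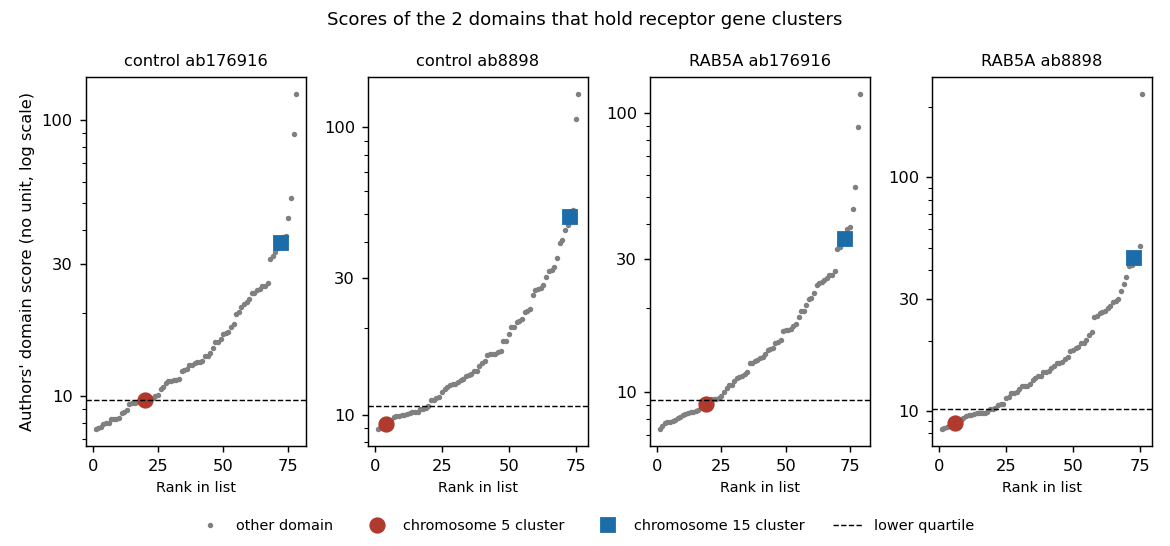
Score given by the domain caller (no stated unit, log scale, vertical axis) against its rank in the list (horizontal axis) for every domain of each library (grey points), with the lower quartile as a dashed line and the domains around the chromosome 5 and chromosome 15 clusters marked. The chromosome 5 domain lies between 8.88 and 9.67, under the dashed line in all 4 libraries but only narrowly in control ab176916. The chromosome 15 domain lies between 35.2 and 48.8, near the top.

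A further cluster of alpha, beta and gamma genes, on chromosome 4, lay outside domains. It holds GABRG1 (46035769-46124054, minus strand), GABRA2 (46243548-46475230, minus), GABRA4 (46918900-46993581, minus) and GABRB1 (46993723-47426447, plus). GABRA2 encodes an alpha subunit found at the axon initial segment, and GABRA4 one of receptors outside the synapse. No library had a domain anywhere on chromosome 4, so no distance could be given for these genes or for GRIA2 on the same chromosome. Every member of the clusters on chromosomes 5 and 15 was inside a domain, and every member of the chromosome 4 cluster was outside. Without a domain on chromosome 4, the members of that cluster could not have differed from each other.

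**Figure D3:**
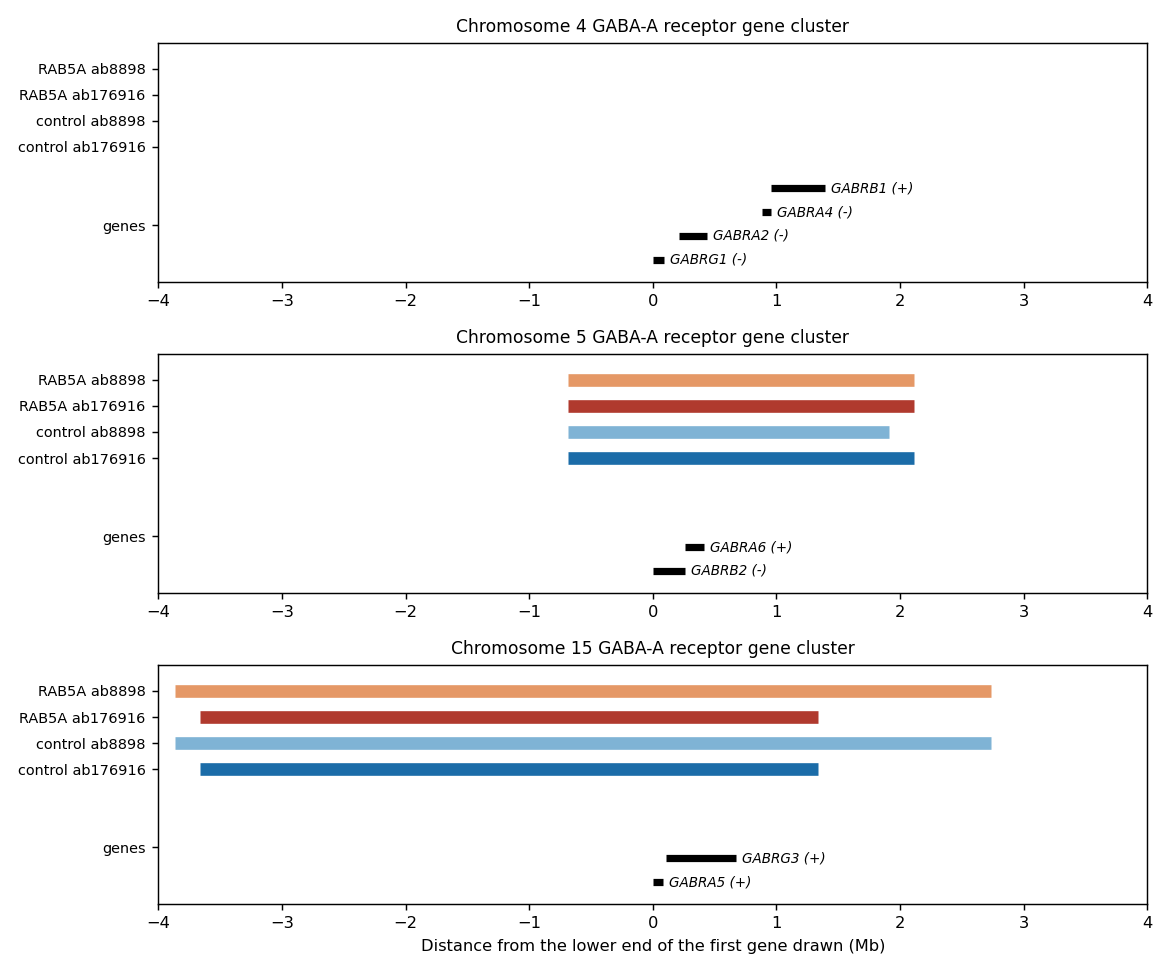
Position of domains (bars, one row per library) and receptor genes drawn (black) around the clusters on chromosomes 4, 5 and 15, as distance in Mb from the lower end of the first gene drawn. Domains enclose the clusters on chromosomes 5 and 15 in all 4 libraries, with a wider chromosome 15 domain with ab8898, and the chromosome 4 panel has no bar.

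The remaining GABA-A genes lay at various distances. GABRD, near the end of the short arm of chromosome 1, was 1.77 Mb from a domain in each of the 4 libraries. GABRP on chromosome 5 was 7.36, 7.39, 7.36 and 7.36 Mb from one. In 3 libraries its nearest domain was the one around GABRB2 and GABRA6, and in control ab8898 it was chr5:178200001-179600000. GABRR1 and GABRR2 on chromosome 6 were 78.8 and 78.7 Mb from the only domain of that chromosome, which control ab8898 lacked. GABRR3 on chromosome 3 was 93.6 Mb away in 3 libraries and 70.8 Mb in RAB5A ab176916.

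None of the 17 glutamate receptor genes came within 1 Mb of a domain. The share of all autosomal genes within that distance was not computed, so this count is no result about the glutamate receptor genes. Among the NMDA receptor genes, GRIN2A, a glutamate-binding subunit whose share rises after birth, was nearest, at 1.15 Mb in all 4 libraries from chr16:5000001-8600000. GRIN1, the obligatory subunit of every NMDA receptor, was 1.34, 1.34, 1.74 and 1.34 Mb from a domain at chr9:134400001-135800000 that ended at 135400000 in RAB5A ab176916. GRIN2B, the subunit typical of the young brain, was the farthest of all receptor genes with a distance, at 100.02 Mb in 3 libraries and 104.4 Mb in RAB5A ab8898. The NMDA genes thus covered nearly the whole range of distances, with GRIN2D at 2.76 Mb, GRIN3B at 7.59 Mb, GRIN3A at 32.7 Mb and GRIN2C at 51.2 Mb, each the same in the 4 libraries.

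Of the AMPA receptor genes, GRIA1 was 6.79 Mb and GRIA4 8.62 Mb from a domain in every library. The domain nearest to GRIA1 was the one around the chromosome 5 GABA-A cluster. The kainate receptor genes GRIK4 (3.91 Mb) and GRIK5 (4.00 Mb) also had the same distance in all libraries. GRIK4 and GRIA4 lay on either side of the same domain, chr11:114600001-116600000. GRIK1 was 6.14, 4.94, 4.94 and 4.34 Mb from a domain on chromosome 21 whose upper edge moved between libraries. GRIK2, on chromosome 6, was 65.9 Mb from the single domain there in the 3 libraries that had it.

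GRID1, which encodes a delta protein, showed the greatest difference between libraries. It was 1.40 Mb from a domain in control ab176916 and 41.8 Mb from one in the other 3 libraries. The domain at chr10:80600001-84200000 was called in control ab176916 alone, where its score ranked 31 of 78 from the lowest. As the other control library lacked it, this difference lay between the control libraries as well as between conditions.

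**Figure D4:**
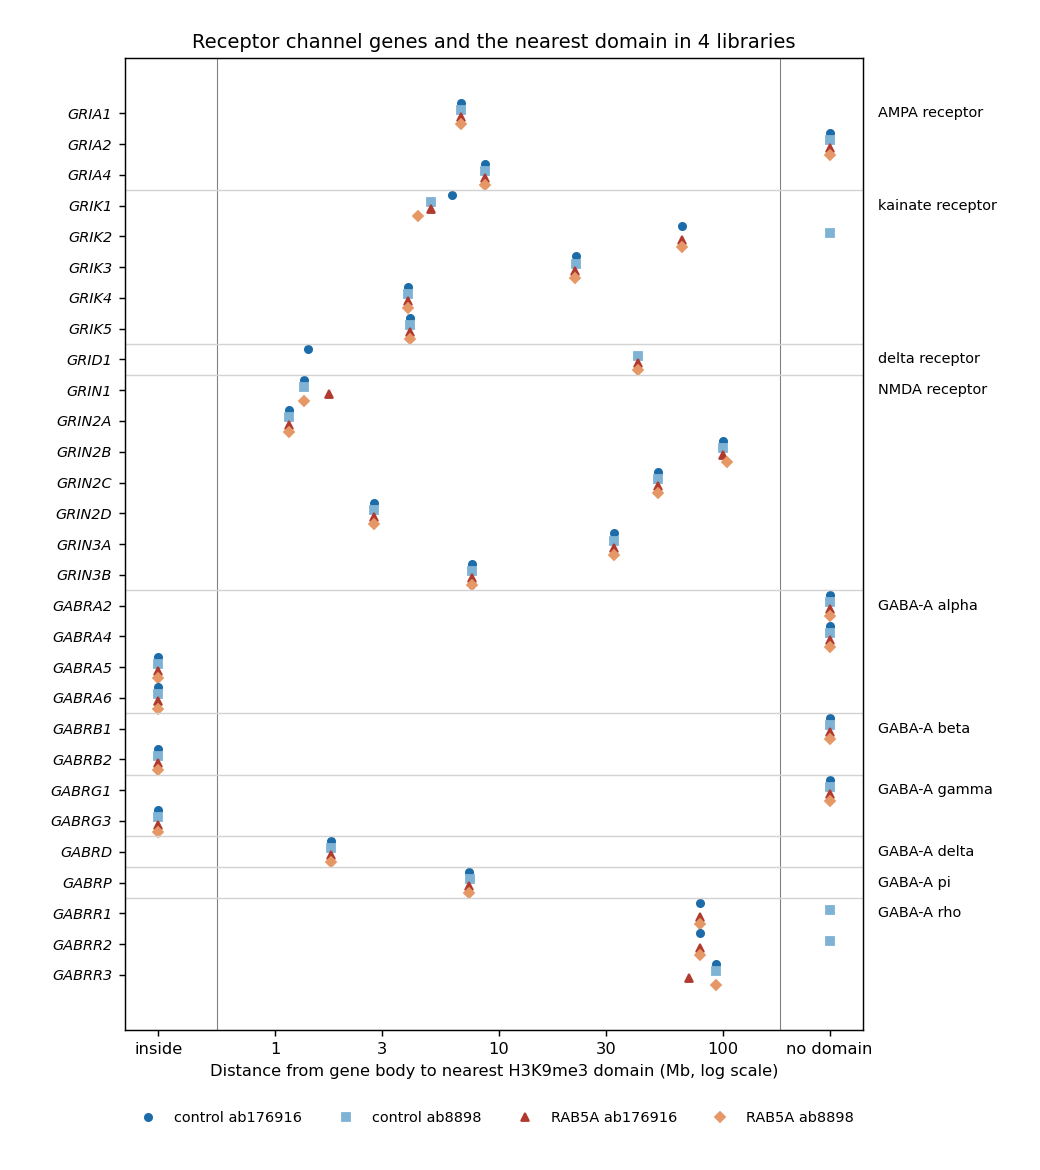
Distance from the gene body to the nearest H3K9me3 domain (Mb, log scale) for 29 receptor channel genes, with one marker per library and genes grouped by receptor class. The 4 genes at left lie inside a domain in all 4 libraries, the markers at right stand for chromosomes without a domain, and the 4 markers of most genes fall together, with GRID1 as the widest exception.

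Domains in the wider surroundings were measured as the share of the gene body and 5 Mb on either side that was called. For GABRB2 and GABRA6 this was 25.3% to 27.6%, and for GABRA5 and GABRG3 51.4% to 72.7%, values that contain the enclosing domains themselves. Some genes outside domains had similar surroundings, with 34.5% for GRIN2A in all 4 libraries and 22.3% for GRIN2D. GABRD had 28.4% with ab176916 and 31.3% with ab8898. Its window was shorter, cut at the start of the chromosome, so these values are not directly comparable with the others. GRID1 had 33.4% in control ab176916 and 0% in the other libraries. GABRG1, GABRA2, GABRA4 and GABRB1 had 0%.

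The comparison of conditions asked whether expression of RAB5A, which fluidizes jammed monolayers, went with a different placing of these genes relative to heterochromatin. In both conditions 7 ± 0 genes (SD, n = 2) overlapped a domain and 7 ± 0 had their start in one, differences of 0 (exact two-sided permutation test, p = 1 for both). The mean share of the gene body in domains was 21.2% in each library, a difference of 0 (exact permutation p = 1). The median distance to a domain over the 24 genes on chromosomes with a domain in every list came to 3.64 ± 0.440 Mb for the control libraries and 3.96 ± 0 Mb for the RAB5A libraries (SD, n = 2). By library it was 3.33 Mb in control ab176916 and 3.96 Mb in control ab8898 and both RAB5A libraries. GRID1 alone lay below the median in control ab176916 (1.40 Mb) and above it in the others (41.8 Mb). The difference of 0.311 Mb was smaller than the spread between the control libraries (exact permutation p = 1). With 2 libraries against 2 the smallest possible p is 0.333, so this design cannot reach 0.05.

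Per gene, 17 of the 33 had the same distance in the 4 libraries, the 7 genes in domains included, and 6 had no domain on their chromosome. Of the 10 whose distance varied, 8 were set apart by a single library, GRIK1 varied without a pattern of this kind, and 0 followed the antibody. Control ab8898 stood apart for GABRP, GABRR1, GABRR2 and GRIK2, RAB5A ab176916 for GABRR3 and GRIN1, control ab176916 for GRID1 and RAB5A ab8898 for GRIN2B. GABRR1, GABRR2 and GRIK2 shared a single event, the absence of the chromosome 6 domain from that control list. The shares of all autosomal genes with the same distance or with a single-library or antibody pattern were not computed. These counts are therefore no result about the receptor genes. GRIK3 alone followed the condition, at 22.0 Mb in both control and 21.8 Mb in both RAB5A libraries. Its nearest domain, chr1:12600001-14800000 in control, ended one 200 kb bin higher in RAB5A cells. Such a pattern was found for 6.86% of the 19111 autosomal genes, so 1 of 33 is no result about the receptor genes.

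The 7 genes in domains shared features that the rule did not use. The gene body had 36.0% GC for GABRB2 and 36.1% for GABRA6 on chromosome 5, and 40.8% for GABRG3 and 43.4% for GABRA5 on chromosome 15. The median was 45.4% for all autosomal genes and 44.5% for the 772 autosomal genes wholly in a domain in all 4 libraries. Within 1 Mb of their starts lay 2 to 4 other protein-coding gene starts, with a median of 3, against 22 for all autosomal genes and 48 for the 772 genes in domains. The 7 receptor genes thus had few neighbours, while the median gene in a domain had many. The 7 lie in 2 clusters and are not independent observations. Receptor genes of the same cluster count among each other's neighbours.

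Low GC and few neighbours did not separate the receptor genes in domains from those outside. The chromosome 4 cluster had 32.6% to 36.8% GC and 4 to 9 neighbouring starts. The 26 genes outside had a median of 11.5 neighbouring starts and a median GC content of 41.6%. The chromosome 5 domain, with 1.79 genes per Mb (1.92 in control ab8898), was close to the median domain, which had 1.65, 2.04, 2.00 and 2.00 in the 4 lists. The chromosome 15 domain had 3.40 genes per Mb with ab176916 and 4.24 with ab8898.

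**Figure D5:**
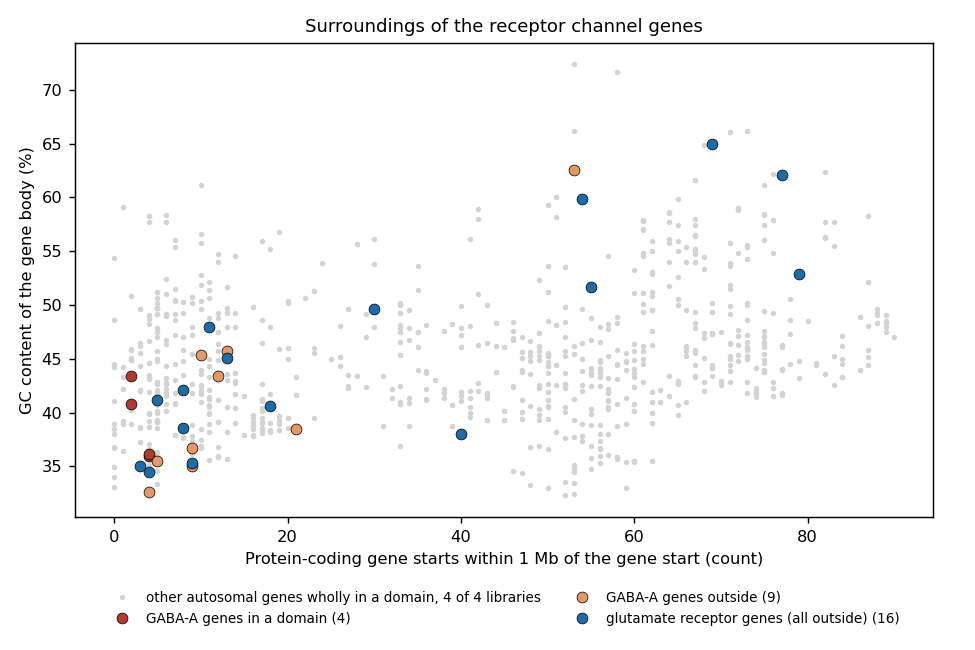
GC content of the gene body (%, vertical axis) against the number of other protein-coding gene starts within 1 Mb of the gene start (horizontal axis), for receptor channel genes (coloured) and for other autosomal genes wholly in a domain in all 4 libraries (grey). The 4 GABA-A genes drawn in domains sit at 2 to 4 neighbours and 36.0% to 43.4% GC, among receptor genes outside domains and away from the many grey points beyond 40 neighbours.

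Promoter sequences were searched on both strands for 4 short motifs, none of which overlaps another. The palindromic NRF-1 element stood in the promoters of GABRB1 and GABRB2, the former outside and the latter inside a domain, and in 1.74% of the 14616 autosomal promoters. TATAAA was found for GABRR2 and in 9.72% of all. GGACAGC, a piece of the element bound by the neuronal gene repressor REST, was found for GABRG3 and GABRR1 and in 6.93% of all. TCAGCACC, another piece of that element, was found for 0 of the 23 receptor promoters and in 1.72% of all. These are matches of letters in a window of 300 bases and do not show binding.

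Genes that act with the receptors were examined in 3 lists chosen by function. Of 20 genes of glutamate signalling outside the channels (metabotropic receptors, transporters, enzymes), 1 overlapped a domain in all 4 libraries, GRM6, the metabotropic receptor of retinal bipolar cells, at 100% of its body. None of 11 such GABA genes did. Of 39 genes for auxiliary and scaffold proteins, 6 (15.4%) did so in all 4 libraries. CACNG7 and CACNG8 on chromosome 19, whose proteins accompany AMPA receptors, lay in domains over 100% of their bodies in all 4 libraries, as did CBLN4, DLGAP2 and SHISA6. The sixth, DLGAP1, named after its values were seen, had 47.5% of its body in a domain in each library. Together, 7 of 70 genes of these lists overlapped a domain in all 4 libraries, beside 4.32% of all autosomal genes. CACNG7 and CACNG8 are neighbours within a single domain, so these genes are not all independent observations.

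Of 32 genes for other ligand-gated channels, 18 for voltage-gated sodium and calcium channels and 14 epithelial genes, 0 overlapped a domain in any library. In lists of this length, counts of 0 are close to the 4.32% of all autosomal genes that overlapped a domain in all 4 libraries, and the same holds for the 0 of 17 glutamate receptor genes. The difference between lists was not tested.

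Relatives of these genes on chromosome X fall outside the autosomal rule. GRIA3 (X:123184153-123490915), which encodes an AMPA receptor subunit, had 100% of its body in a domain in all 4 libraries. The GABA-A genes GABRE (151953124-151974680), GABRA3 (152166234-152451315) and GABRQ (152637895-152657542), which form a cluster of epsilon, alpha and theta subunits, also had 100% in all 4. Lying in a domain was the common state on that chromosome, where 69.5% of 859 protein-coding genes lay wholly in a domain in all 4 libraries (70.8% and 72.3% in control, 70.0% and 86.7% in RAB5A cells, ab176916 before ab8898), so these values are no result about the receptor genes. Which gene copies of chromosome X carried the mark cannot be told from domain lists.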

How the data were processed

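H3K9me3 ChIP-seq domains of 4 libraries were analysed. The 2 input libraries were not analysed here as such. The authors trimmed reads with Trimmomatic (0.39), aligned them to hg38 with BWA (0.7.17-r1188), marked duplicates with Picard (2.22), kept reads with a mapping quality of at least 1 (SAMtools 1.9) and called domains in each library with EDD (200 kb bins, gap penalty 25), leaving out an exclusion list. The deposited files give positions and a score per domain whose unit is not stated, and the score was used only to rank or filter within a list. The lists hold no counts, so the depth per library is unknown and no counting error is given. Stretches below the calling threshold are not visible.

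Gene positions were those of GENCODE 44. Overlap (at least 1 bp), distance, surroundings and the tests were computed with Python 3.11.15 and NumPy 2.4.6, and plots with Matplotlib 3.10.9. The test between conditions was an exact permutation test, two-sided, with 6 labellings. The steps were tested on simulated data. RefSeq promoters were matched by symbol for 23 of 33 genes, 3 of them among the 7 in domains, and where a gene had several the first was used. All 14616 matched autosomal promoters equalled the hg38 sequence.

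Values in every library were given for genes overlapping a domain or within 1 Mb of one and for the farthest gene, and from each comparison list up to 5 overlapping genes were named. Values per library of other genes were added after they were seen. Single results of some genes are not reported here. The genes and lists were chosen with earlier results of these data known. The replicate number is the antibody per the labels, and libraries with the same number were paired in an alternative. Deviations from the group means in the 5 Mb surroundings correlated between the pairs with r = 0.681 over 33 genes, of which 11 had any deviation.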

Additional observations from a re-analysis of the deposited data

How the results depend on the processing

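Most alternative settings could not have moved the genes out of domains. Every deposited domain was at least 1 Mb long, so that minimum changed no list, and merging domains closer than 400000 bp, extending gene bodies by 200 kb, canonical transcripts or requiring 50% of the body cannot drop a gene that lies wholly inside. The count of 7 under them is therefore no sign of stability. The score filter could drop genes and did. With domains under the lower quartile of score left out, the genes in domains in all libraries went from 7 to 3, GABRA5 and GABRG3 included. The difference in median distance was -0.638 Mb under the filter and 0.311 Mb without it (exact permutation p = 1). The filtered median was over genes on chromosomes that kept a domain in every list. GRIN1 and GRIN3A on chromosome 9 fell out, so these differences are not over the same genes and are not directly comparable. The lost genes follow from the loss of the chromosome 5 domain, which in control ab176916 lay only just under the lower quartile. For the distance the cause was not tested. Under that setting GABRB2 and GABRA6 had 0% of their bodies in a domain. Leaving out libraries or an antibody gave differences in median distance from 0 to 0.622 Mb: 0 without control ab176916 or without ab176916, and 0.622 Mb without control ab8898 or without ab8898, while the count stayed at 7 and its difference at 0. With the replicate block, the pairing by antibody, the differences were 0, 0, 0 and 0.311 Mb (exact sign-flip p = 1, smallest possible 0.5). Positions are limited to 200 kb, and without depth a gene outside a domain cannot be told from one whose enrichment was not called.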
